A study of Mus musculus with 17 samples.

Results

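The 48 genes described here encode the proteins that copy the genome in S phase. They were chosen by name, as genes of the replicative helicase (12 genes), origin licensing (5), the DNA polymerases with their primase, clamp and clamp loader (11), lagging strand processing and single-stranded DNA binding (3), deoxynucleotide supply (5), the copying of chromatin and DNA methylation (4), the transcription factors and cyclins of the G1/S transition (5) and fork protection (3). All 48 were found among the 53313 gene identifiers that the 17 count tables have in common. RNA had been sequenced in bulk from 2 settings of wild-type C57BL/6JRj mice (written C57BL/6Rj in the sample labels). Primary tubular epithelial cells (PTEC), grown from sedimented kidney tubule fragments in REGM2 medium, were taken untreated at day 6 (non-senescent, n = 4) or at day 16 in culture, having been exposed when confluent to γ-irradiation of 10 Gy (senescent, n = 4). Whole kidney RNA, from part of the right kidney of male mice, was taken untreated at 3, 12 and 24 months of age (n = 3 each). Irradiation and time in culture changed together and cannot be told apart. The sources used here do not say which cultures came from separate animals, so the p-values of PTEC measure the spread between these samples, which may be technical.

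DNA replication is licensed in G1, when the origin recognition complex, Cdc6 and Cdt1 load the MCM ring onto DNA. In S phase Cdc45 and the GINS complex join that ring to form the active helicase, and polymerases then copy both strands behind it, continuously on one and in short fragments on the other. Most of these genes are transcribed under E2F factors, which the retinoblastoma family holds in check until a cell commits to division, and cells that leave the cycle, in quiescence or in senescence, carry little of their RNA. In the healthy adult kidney few tubular cells divide, and they re-enter the cycle mainly to repair injury.

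Library depth was 26963442 to 35409144 counts in PTEC and higher at older ages in the kidneys, from 37311247 to 49471409 at 3 months to 62761670 to 66894790 at 24 months. Levels are given as CPM, the counts of a gene divided by its library size after TMM scaling. The defining markers of the labelled cell type were low in culture. On a scale common to the 17 libraries, the summed level of the proximal tubule markers was 173 to 673 CPM in non-senescent PTEC, 134 to 277 in senescent PTEC and 13864 to 25313 in kidneys, and Slc34a1, the phosphate transporter of that segment, was at 0 to 0.07 CPM in the senescent cultures. Non-senescent replicate 4 stood apart, with 851 CPM of these markers on the PTEC scale against 215 to 259 in the other 3 cultures of its group. It was also the lowest culture of its group for 43 of the 48 replication genes, with a median ratio of 0.589 to the mean of the others. Markers of other kidney cells also differed between the PTEC groups. Fibroblast markers summed to 9.99 to 67.1 CPM in non-senescent and 66.2 to 262 CPM in senescent cultures (3 of 5 tested called up), podocyte markers to 66.6 to 122 and 194 to 381 CPM (2 of 3 up), and loop and distal tubule markers to 6.83 to 33.2 and 0.518 to 0.837 CPM (3 of 3 down). Of the proximal tubule markers 3 of 6 tested were called down and of the leukocyte markers 3 of 5, the latter with sums of 21.3 to 40.9 and 13.8 to 33.8 CPM. Over all genes 20.1% were called up and 19.7% down. Of the macrophage, endothelium and tubular injury markers 1 of 6, 1 of 5 and 1 of 4 were called down. These counts are near the share of all genes and mark no difference of those lists. The part of any of these in the levels of the replication genes was not tested.

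Senescent PTEC carried less RNA of every one of the 48 replication genes. All 48 passed the test in the downward direction (edgeR's quasi-likelihood test, adjusted p under 0.05 over 15434 genes and an absolute log2 fold change above 0.5), against 19.7% of all genes tested in that direction and 20.1% called up. The median change was -2.69 on the log2 scale, a 6.46-fold lower level, where the median over all genes was -0.002. For each of the 48 genes the 4 senescent cultures lay below the 4 non-senescent ones, a separation that 19.9% of all tested genes showed in this direction. Falls of more than 2 log2 units were seen in 37 members and falls of more than 4 in 7 members, where 631 and 163 of the 15434 genes tested fell as far. Summed over the 48 genes, the cultures of day 6 held 4297, 4223, 3702 and 2487 CPM, and the irradiated cultures held 610, 618, 590 and 604 CPM. When any 1 of the 8 cultures was left out, the count stayed at 48 and the median lay between -2.85 and -2.62.

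**Figure D1:**
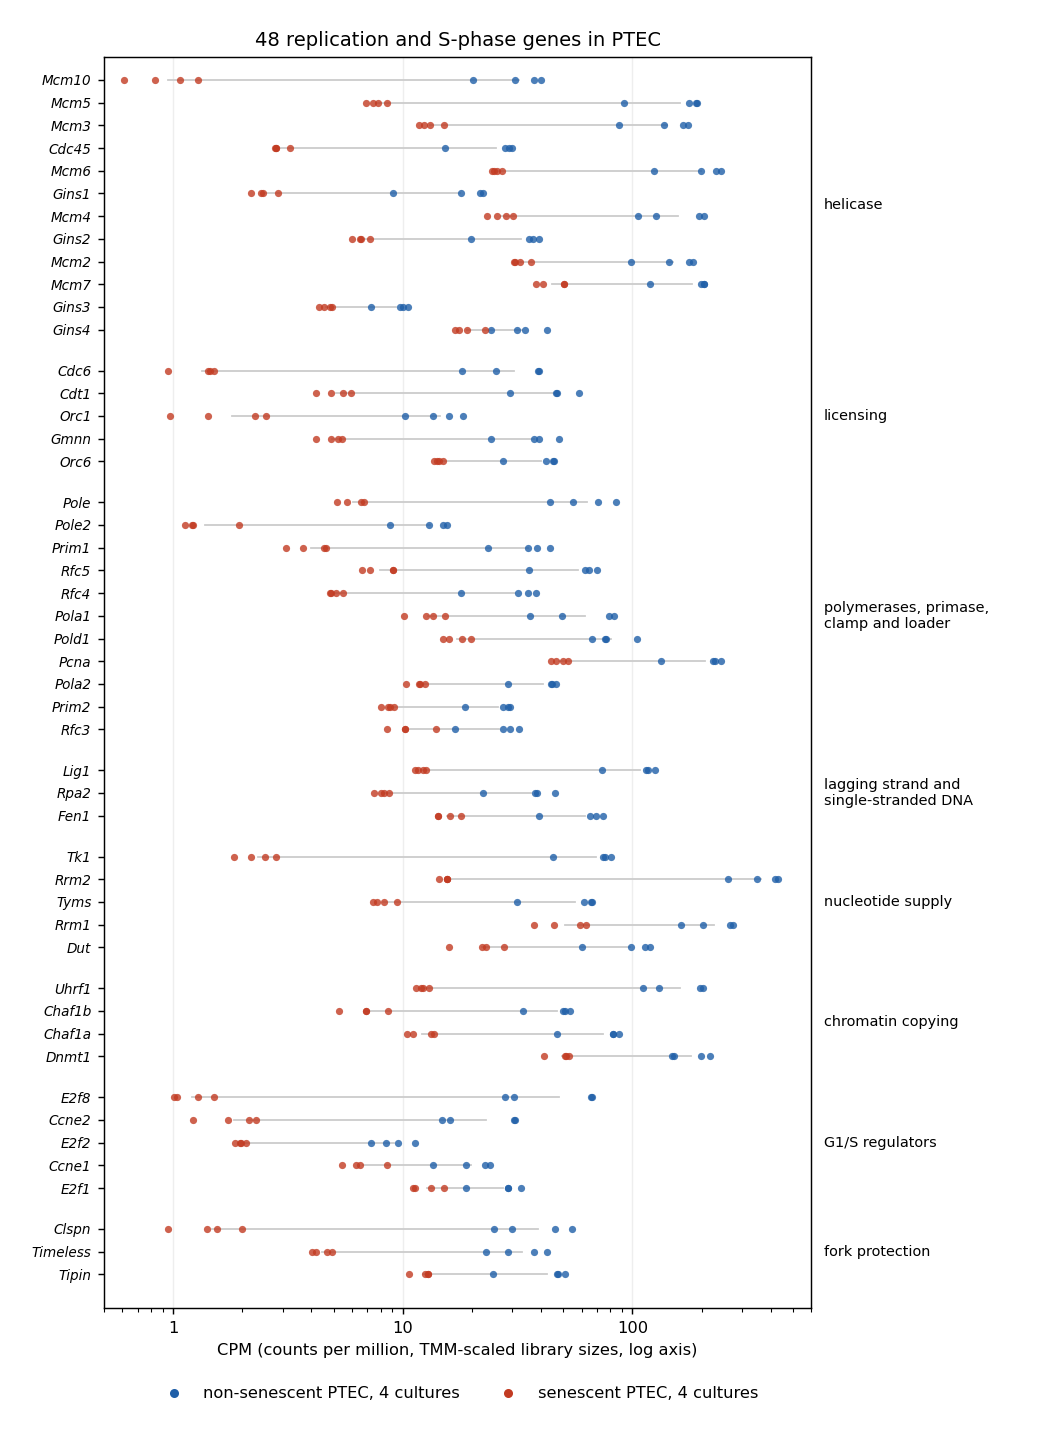
CPM of each of the 48 genes (log axis) in the 4 non-senescent and the 4 senescent PTEC cultures, 1 point per culture, grouped by role, with a grey line joining the group means. For all 48 genes the 4 senescent points lie to the low side of the 4 non-senescent ones, with the shortest distance at Gins4 (1.73-fold) and the longest at E2f8 (39.3-fold).

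Because the members moved together, the sequence before their start sites was searched for letters that G1/S and mitotic promoters are known for. Of the 48 genes, 39 have a window in the RefSeq promoters of GRCm38.p6 (250 bases before to 50 after the start). The 4 runs TTTCCCGC, TTTCGCGC, TTTGCCGC and TTTGGCGC, to which E2F factors bind, were searched on both strands and were present in 17 of the 39 members (43.6%) and in 704 of 27025 genes (2.61%). The CCAAT box, CCAAT on either strand, was in 23 members (59%) and in 41.1% of genes. TTTGAA on either strand, the cell cycle homology region of mitotic promoters, was in 7 members (17.9%) and in 20.2% of genes. The median change in PTEC was -3.0 in members with E2F letters and -2.61 in the 22 without, -2.63 with the CCAAT box and -2.77 without, and -2.21 with TTTGAA and -2.82 without. A match is a description of letters and not a bound site. 5 windows are printed 5′ to 3′ on the strand of the gene. The first 4 belong to the members with the largest falls in PTEC among the 17 whose window holds the E2F letters. These letters are in capitals, and in Mcm5 they are a pair of overlapping matches. Uhrf1 has 2 windows, and the one that holds the letters is shown. The last, of the gene with the largest fall, holds none of the E2F letters and has the CCAAT box and the cell cycle homology region in capitals. In Clspn, Cdc6 and E2f8, and for 1 of the pair in Mcm5, the letters lie on the other strand and appear as their complement. The E2F letters begin 22 bases into the transcript in Clspn and 138, 153 and 185 bases before its start in Cdc6, Mcm5 and Uhrf1.
Clspn, chr4:126556730-126557029, plus strand: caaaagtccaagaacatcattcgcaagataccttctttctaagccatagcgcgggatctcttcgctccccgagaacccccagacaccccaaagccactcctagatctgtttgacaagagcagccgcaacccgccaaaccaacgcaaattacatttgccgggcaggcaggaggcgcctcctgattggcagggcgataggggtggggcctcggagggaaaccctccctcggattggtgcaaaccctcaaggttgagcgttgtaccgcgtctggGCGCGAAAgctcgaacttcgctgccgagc
Cdc6, chr11:98907901-98908200, plus strand: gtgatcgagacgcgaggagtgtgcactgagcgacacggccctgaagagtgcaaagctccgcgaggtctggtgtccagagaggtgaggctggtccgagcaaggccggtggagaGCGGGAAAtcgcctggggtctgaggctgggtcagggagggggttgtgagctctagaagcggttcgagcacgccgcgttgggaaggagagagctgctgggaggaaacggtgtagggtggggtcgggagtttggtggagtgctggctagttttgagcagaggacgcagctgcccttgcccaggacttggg
Mcm5, chr8:75109259-75109558, plus strand: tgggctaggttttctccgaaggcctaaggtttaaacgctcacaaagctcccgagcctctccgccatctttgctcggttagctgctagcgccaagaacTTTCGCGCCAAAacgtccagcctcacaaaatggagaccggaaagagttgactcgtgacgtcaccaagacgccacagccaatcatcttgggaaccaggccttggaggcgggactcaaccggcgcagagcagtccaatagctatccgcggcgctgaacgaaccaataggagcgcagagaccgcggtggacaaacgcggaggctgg
Uhrf1, chr17:56304063-56304362, plus strand: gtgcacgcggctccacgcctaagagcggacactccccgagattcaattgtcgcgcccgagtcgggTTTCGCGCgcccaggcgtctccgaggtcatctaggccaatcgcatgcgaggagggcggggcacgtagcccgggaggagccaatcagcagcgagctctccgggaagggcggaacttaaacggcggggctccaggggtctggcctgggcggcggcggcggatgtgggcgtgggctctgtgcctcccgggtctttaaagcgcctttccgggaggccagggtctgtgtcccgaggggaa
E2f8, chr7:48881547-48881846, minus strand: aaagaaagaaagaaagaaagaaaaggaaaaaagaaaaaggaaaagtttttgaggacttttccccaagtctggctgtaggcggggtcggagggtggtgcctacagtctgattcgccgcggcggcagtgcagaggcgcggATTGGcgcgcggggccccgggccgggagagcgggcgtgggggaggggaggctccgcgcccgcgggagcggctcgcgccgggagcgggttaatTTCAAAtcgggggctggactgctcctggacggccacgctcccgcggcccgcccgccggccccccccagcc

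The replicative helicase was the largest group, and its 12 genes fell by a median of 2.70 on the log2 scale. Mcm10, which helps to activate the assembled helicase, measured 39.9, 37.3, 30.8 and 20.2 CPM in non-senescent replicates 1 to 4 and 0.611, 1.07, 0.837 and 1.28 CPM in senescent replicates 1 to 4, a change of -5.08 ± 0.31 (log2, SE; adjusted p = 3.85e-06), 33.7-fold lower. Mcm5, a subunit of the ring, was at 191, 176, 188 and 91.4 CPM and at 8.52, 7.4, 6.89 and 7.77 CPM (-4.40 ± 0.25, adjusted p = 3.19e-06), 21.2-fold lower. The 2 groups of cultures were far apart for both genes, and the lowest non-senescent culture was replicate 4 each time. The other subunits of the ring fell less. Mcm3 went from 174, 167, 137 and 87.0 CPM to 12.3, 13.2, 11.8 and 15.1 CPM, 10.8-fold lower. Mcm6 fell 7.80-fold, Mcm4 5.91-fold, Mcm2 4.65-fold and Mcm7 4.06-fold, with adjusted p-values from 8.83e-06 to 6.01e-05.

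The fall was therefore uneven within one complex whose 6 subunits stand in equal number. Per kilobase of exon, on the scale common to the 17 libraries, the 6 subunits lay close together in non-senescent PTEC, between 35.1 CPM per kb (Mcm4) and 48.9 (Mcm7). The highest subunit was 1.27, 1.36, 1.89 and 1.53 times the lowest in replicates 1 to 4. In senescent PTEC the same 6 ran from 1.73 CPM per kb (Mcm5) to 11.8 (Mcm7), and the highest was 5.18, 6.43, 8.49 and 7.57 times the lowest. Whole kidneys also had them spread, with ratios of 4.06 to 7.49 over the 9 libraries and Mcm3 as the lowest on average at every age. These ratios were picked after the values were seen and are given as a description.

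Cdc45, the partner of the ring in the active helicase, measured 29.8, 29.1, 27.8 and 15.2 CPM and then 2.80, 3.22, 2.81 and 2.76 CPM, 8.78-fold lower (-3.13 ± 0.23, adjusted p = 1.23e-05). The 4 GINS subunits, which bind beside it, fell by very different amounts. Gins1 fell 7.13-fold, from 21.6, 17.9, 22.4 and 9.04 CPM to 2.19, 2.41, 2.46 and 2.87 CPM. Gins2 fell 5.0-fold, from 37.0, 35.5, 39.1 and 19.9 CPM to 7.21, 6.6, 6.48 and 6.01 CPM. Gins3 fell 2.02-fold, from 9.68, 10.5, 10.0 and 7.27 CPM to 4.92, 4.52, 4.32 and 4.80 CPM. Gins4 had the smallest fall of all 48 members: it was at 34.1, 31.5, 42.3 and 24.3 CPM in non-senescent cultures and at 17.6, 16.9, 22.8 and 19.0 CPM in senescent ones, 1.73-fold lower (-0.79 ± 0.19, adjusted p = 0.00709). The highest senescent culture of Gins4 and the lowest non-senescent one were 22.8 and 24.3 CPM, so the groups were just separate. Exons of Gins2 overlap those of Gse1 on the other strand, and the strand setting of the counting is not given in the sources used here.

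The 5 licensing genes fell by a median of 3.0. Cdc6, the loader that is made in G1, measured 39.3, 38.6, 25.5 and 18.1 CPM in non-senescent and 1.42, 1.51, 0.946 and 1.45 CPM in senescent cultures, 22.9-fold lower (-4.52 ± 0.31, adjusted p = 7.06e-06). Cdt1, which brings the ring to the origin, was at 46.7, 47.1, 58.5 and 29.4 CPM and at 4.18, 4.89, 5.51 and 5.98 CPM, 8.83-fold lower. Geminin (Gmnn), the inhibitor that binds Cdt1 after S phase has begun, was at 39.3, 37.2, 48.1 and 24.1 CPM and at 5.21, 4.19, 5.46 and 4.87 CPM, 7.53-fold lower. The 2 stayed near the same proportion to each other: the level of Cdt1 per kilobase was 0.645 to 0.688 times that of Gmnn in the non-senescent cultures and 0.436 to 0.666 times in the senescent ones. Of the origin recognition complex, Orc1, the subunit that is degraded and remade each cycle, fell 8.0-fold, from 18.3, 15.9, 13.5 and 10.2 CPM to 1.42, 0.971, 2.54 and 2.28 CPM. Orc6, which is loosely bound to the complex, fell 2.80-fold, from 45.6, 45.0, 42.2 and 27.2 CPM to 14.3, 14.0, 15 and 13.7 CPM.

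Polymerases, primase, clamp and clamp loader fell by a median of 2.27 over 11 genes. Pole, the catalytic subunit of the leading strand polymerase, measured 70.9, 84.4, 43.5 and 55.3 CPM and 6.56, 5.73, 5.16 and 6.77 CPM, 10.5-fold lower (-3.39 ± 0.23). Its second subunit Pole2 measured 15.5, 15, 12.9 and 8.82 CPM and 1.13, 1.94, 1.22 and 1.21 CPM, 9.52-fold lower (-3.25 ± 0.27). Pold1, the catalytic subunit of the lagging strand polymerase, fell less, 4.71-fold, from 75.6, 76.5, 104 and 66.7 CPM to 15.9, 18, 19.7 and 14.9 CPM. In the polymerase that lays down primers, the primase subunit Prim1 fell 8.83-fold (43.7, 38.4, 35 and 23.5 CPM against 4.63, 4.52, 3.11 and 3.66 CPM). Pola1, its catalytic polymerase subunit, fell 4.81-fold (79.2, 82.8, 35.7 and 49.6 CPM against 13.5, 15.2, 10.1 and 12.6 CPM). The accessory subunits Pola2 and Prim2 fell 3.53-fold and 3.00-fold. PCNA, the sliding clamp, was abundant throughout: Pcna was at 244, 229, 225 and 133 CPM in non-senescent cultures and still at 46.3, 49.6, 52.3 and 44 CPM in senescent ones, 4.32-fold lower (-2.11 ± 0.19, adjusted p = 3.99e-05). The clamp loader subunits Rfc5, Rfc4 and Rfc3 fell 7.28-fold, 6.05-fold and 2.46-fold.

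On the lagging strand, DNA ligase I (Lig1), which joins the fragments, measured 115, 116, 126 and 73.3 CPM and 12.3, 12.6, 11.3 and 11.7 CPM, 8.98-fold lower (-3.17 ± 0.18, adjusted p = 3.23e-06). Rpa2, of the complex that coats single-stranded DNA, fell 4.44-fold, from 38.5, 37.5, 46.1 and 22.3 CPM to 7.46, 8.27, 8.67 and 8.05 CPM. Fen1, the nuclease that trims the flaps, fell 3.95-fold, from 74.1, 65.2, 69.1 and 39.0 CPM to 14.3, 14.2, 18 and 16.1 CPM, and shares exonic sequence with an overlapping gene. For all 3 the groups were separate.

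Nucleotide supply held the member with the highest level per kilobase in non-senescent PTEC. Rrm2, the small subunit of ribonucleotide reductase made in S phase, was at 432, 417, 347 and 261 CPM in non-senescent PTEC and at 15.6, 15.6, 14.4 and 15.6 CPM in senescent PTEC, 23.8-fold lower (-4.57 ± 0.19, adjusted p = 2.61e-06). Rrm1, the large subunit, fell 4.42-fold, from 266, 273, 202 and 162 CPM to 58.8, 62.6, 37.2 and 45.7 CPM. Rrm2b, the small subunit that p53 induces and that serves cells outside S phase, was at 37.9, 33.1, 18.9 and 31.8 CPM and at 44.7, 48.9, 32.8 and 41.2 CPM, a difference that did not pass the test (0.46 ± 0.22, adjusted p = 0.112). The order of the small subunits therefore turned. Per kilobase, Rrm2 was 17.1 to 38.2 times Rrm2b in the 4 non-senescent cultures and 0.665 to 0.916 times Rrm2b in the 4 senescent ones. Rrm2 was 2.78 to 3.13 times Rrm1 before and 0.456 to 0.706 times after. Thymidine kinase 1 (Tk1), which salvages thymidine in S phase, fell 29.6-fold, from 74.7, 76.2, 80.6 and 45.2 CPM to 2.51, 1.84, 2.19 and 2.80 CPM. Thymidylate synthase (Tyms), which makes thymidylate anew, fell 6.85-fold, from 66.1, 61.3, 66.4 and 31.6 CPM to 9.46, 8.31, 7.70 and 7.43 CPM. Dut, which clears dUTP so that uracil is not built into DNA, fell 4.42-fold, from 114, 98.2, 119 and 60.6 CPM to 23.1, 27.5, 22 and 15.9 CPM.

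The 4 genes that copy chromatin and DNA methylation fell by a median of 2.69. Uhrf1, which recognises hemimethylated DNA behind the fork, measured 204, 197, 131 and 111 CPM and 12.3, 13.0, 11.4 and 12.0 CPM, 13.2-fold lower (-3.72 ± 0.22, adjusted p = 3.49e-06). Dnmt1, the methyltransferase that Uhrf1 brings there, fell much less, 3.65-fold, from 199, 218, 149 and 152 CPM to 51.4, 53.1, 41.2 and 51.0 CPM. Chaf1b and Chaf1a, which load histones onto new DNA as 1 complex, fell 6.76-fold and 6.18-fold. Exons of Chaf1a overlap those of Ubxn6.

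Of the G1/S regulators, E2f8, a repressor of the E2F family that acts late in S phase, had the largest fall of the 48 members. It was at 66.3, 66.9, 28.0 and 30.6 CPM and at 1.29, 1.0, 1.51 and 1.04 CPM, 39.3-fold lower (-5.30 ± 0.37, adjusted p = 8.85e-06). Its non-senescent levels also varied among cultures, with replicates 3 and 4 at less than those of replicates 1 and 2. The activators fell less: E2f2 fell 4.64-fold and E2f1 2.15-fold, the latter from 28.7, 28.7, 32.7 and 18.8 CPM to 15.2, 13.2, 11.3 and 11.1 CPM. Cyclin E2 (Ccne2), which drives entry into S phase with Cdk2, fell 12.5-fold, from 30.9, 30.6, 16.0 and 14.8 CPM to 2.28, 2.14, 1.22 and 1.73 CPM. Cyclin E1 (Ccne1) fell only 2.97-fold, from 22.8, 24.0, 18.9 and 13.6 CPM to 6.24, 5.43, 6.54 and 8.53 CPM.

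At the fork, Claspin (Clspn), the mediator through which stalled forks activate the kinase Chk1, fell 26.4-fold, from 46.1, 54.6, 25.0 and 29.9 CPM to 1.99, 1.41, 0.946 and 1.55 CPM (-4.72 ± 0.33, adjusted p = 8.85e-06). Timeless, which links helicase and polymerase, fell 7.4-fold, from 37.2, 42.6, 28.7 and 23 CPM to 4.92, 4.66, 4.03 and 4.18 CPM. Its partner Tipin fell 3.46-fold, from 51.0, 46.8, 47.4 and 24.7 CPM to 12.5, 10.7, 12.9 and 12.9 CPM.

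The members are only some of the subunits of their complexes, so the remaining subunits of the origin recognition complex, the clamp loader, the single-stranded DNA binding complex and the polymerases delta and epsilon were set beside them. The 9 subunits that are members changed by -3.39 to -1.30 (median -2.60) and all were called. The 13 other subunits changed by -1.96 to 0.18 (median -0.70), and 9 of them were called, all down, where 19.7% of all genes were called down. The origin recognition complex showed the widest range. Beside Orc1 (-3.0) and Orc6 (-1.49), Orc5 fell by 0.61, while Orc2 (-0.48), Orc3 (-0.03) and Orc4 (0.18) were not called. In the single-stranded DNA binding complex Rpa1 fell by 1.52 and Rpa3 by 1.11, against 2.15 for Rpa2. Of the clamp loader, Rfc1 fell by 0.75 and Rfc2 by 1.34. Of polymerase delta, Pold2 fell by 1.96 and Pold3 by 1.37, and Pold4, at -0.29, was not called. Pole3 and Pole4, small subunits that polymerase epsilon shares with chromatin complexes, fell by 0.65 and 0.70.

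**Figure D2:**
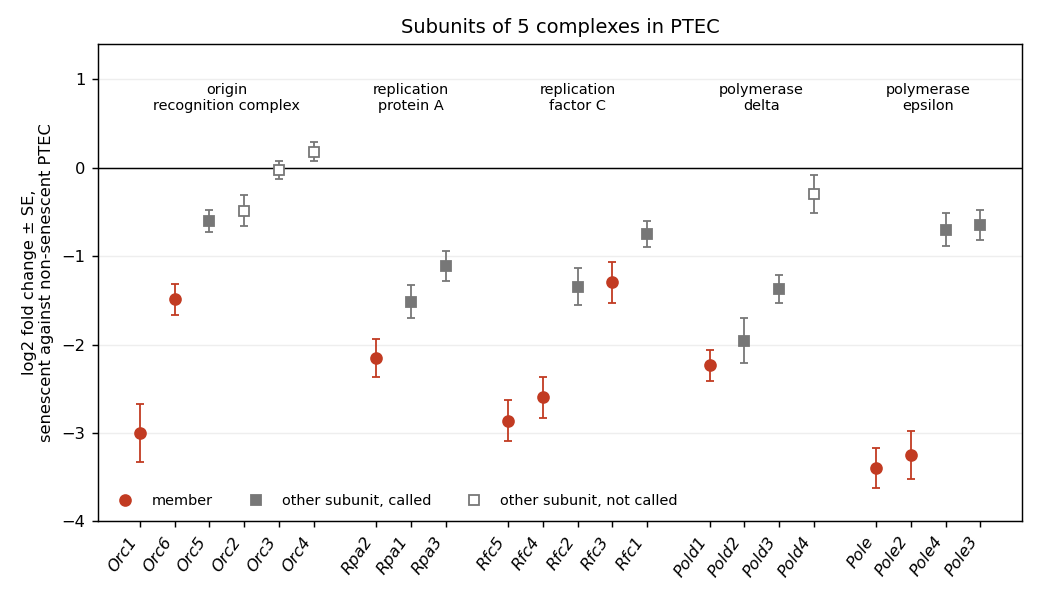
Log2 fold change, senescent against non-senescent PTEC, of the subunits of 5 replication complexes, with the standard error of each; circles are members of the list and squares the other subunits, open where not called. The 9 members lie between -3.39 and -1.30 and the 13 others between -1.96 and 0.18, with Orc3 (-0.03) and Orc4 (0.18) beside the line of no change.

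Genes of the same pathways outside the 48 were counted from lists of their own, to be read against the 20.1% of all genes called up and 19.7% called down in PTEC. Of 35 other genes of the replication machinery, 26 fell and none rose (none at an unadjusted p under 0.05 either), with a median of -1.34. Pclaf, the PCNA clamp associated factor, had the largest fall, from 156, 150.1, 114 and 67.7 CPM to 2.90, 3.01, 1.65 and 3.14 CPM (log2 change -5.52). Of 16 other genes of nucleotide supply, 8 fell and 2 rose, with a median of -0.66. Those 2, Tk2 (0.78) and Dguok (0.75), are the mitochondrial deoxynucleoside kinases, which supply the mitochondrial genome. Of 18 tested genes of checkpoint and chromatin copying, 14 fell and none rose (again none at an unadjusted p under 0.05), from Asf1b, a histone chaperone (-4.07), to Rad17, which was not called (-0.04). Of 30 other G1/S regulators, 14 fell, led by the repressor E2f7 (-4.19), and 8 rose. Cyclin D2 (Ccnd2), which acts upstream of the E2F factors, had the largest rise of that list, from 38.9, 37.6, 22 and 20.4 CPM to 1020, 895, 698 and 1001 CPM (log2 change 4.92). Of 17 mitotic genes all fell, by more than most of the replication genes: their median was -5.08, from Ccna2 (-5.52) to Cdk1 (-3.87).

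Across the 5 groups the replication genes were high in 1 of them. On the scale common to the 17 libraries, 46 of the 48 averaged at least 10 CPM in non-senescent PTEC, against 15 in senescent PTEC and 13, 16 and 13 in kidneys of 3, 12 and 24 months. At least 1 CPM was reached by 48, 46, 43, 43 and 43 genes in the same order. The median member stood at 35 CPM in non-senescent PTEC, 6.39 in senescent PTEC and 5.69, 6.47 and 6.31 in the kidneys, so that these last 4 groups lay close to each other. Per kilobase the highest member was Rrm2 in non-senescent PTEC (132 CPM per kb) and Pcna in the other groups (24.8 in senescent PTEC and 34.4, 28.8 and 28.1 in kidneys of rising age). The lowest was E2f2 in non-senescent PTEC (1.53 CPM per kb), Mcm10 in senescent PTEC (0.150) and Orc1 in kidneys (0.0349, 0.0198 and 0.0374). Orc1 was too low in kidneys to be tested. In these bulk samples fewer cells in S phase and less RNA in each of them cannot be told apart.

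Some members had higher levels in kidneys than in senescent PTEC. Mcm10 averaged 0.150 CPM per kb in senescent PTEC and 1.47, 2.42 and 1.2 in kidneys of 3, 12 and 24 months. Gmnn averaged 3.24 CPM per kb in senescent PTEC and 14.0, 18.1 and 9.31 in kidneys, and Gins4 11.1 against 20.9, 19.9 and 16.5. The proportion of Cdt1 to Gmnn was below the 0.436 to 0.666 of senescent PTEC in younger kidneys and overlapped it at 24 months, at 0.074 to 0.281 in the 6 libraries of 3 and 12 months and 0.235 to 0.624 in those of 24 months. The lowest proportion of each age was in 3-month replicate 3, 12-month replicate 2 and 24-month replicate 2. In these libraries short genes were high against long ones, as described below, and Gmnn (1189 bases of exon) is shorter than Cdt1 (2189). The part of length in this proportion was not tested. Conversely Rrm2 was at 5.45 CPM per kb in senescent PTEC and at 2.38, 1.29 and 4.01 in kidneys, where it was 0.227 to 0.261 times Rrm2b at 3 months, 0.132 to 0.148 times at 12 months and 0.388 to 0.671 times at 24 months. The 3 ranges of this last ratio do not overlap, and the ratio was chosen after the values were seen. The PTEC and the kidneys differ in cell make-up and gene set, and these levels were not tested against each other.

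Few of these genes passed the test between kidney ages. 47 of the 48 were tested, in 1 fit over the 9 kidneys and 17067 genes. From 3 to 24 months none was called, where 1.89% of all genes were called up and 0.451% down. The median change was 0.10, against 0.0007 over all genes. At an unadjusted p under 0.05 there were 8 members higher and 2 lower (9.97% and 8.23% of all genes), and DESeq2 called 2 up. In 12 members all 3 kidneys of 24 months lay above all 3 of 3 months and in 2 they lay below, shares to be read against 11.9% and 10.1% of all genes. From 3 to 12 months 1 member was called down and none up (1.36% and 1.22% of all genes). At an unadjusted p under 0.05 there were 6 members higher and 6 lower (8.95% and 7.58% of all genes), and DESeq2 called 1 up and 2 down. From 12 to 24 months 2 were called up and none down (0.896% and 0.434%). At an unadjusted p under 0.05 there were 10 higher and 5 lower (8.06% and 7.19% of all genes), and DESeq2 called 5 up and 2 down. The shares of all genes called are from edgeR and give no background for the counts of DESeq2. Between 12 and 24 months 15 members were higher and 7 lower without overlap, against 13.5% and 12.2% of all genes. The sum over the members was 349, 329 and 396 CPM at 3 months, 341, 370 and 324 at 12 months, and 361, 369 and 350 at 24 months.

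**Figure D3:**
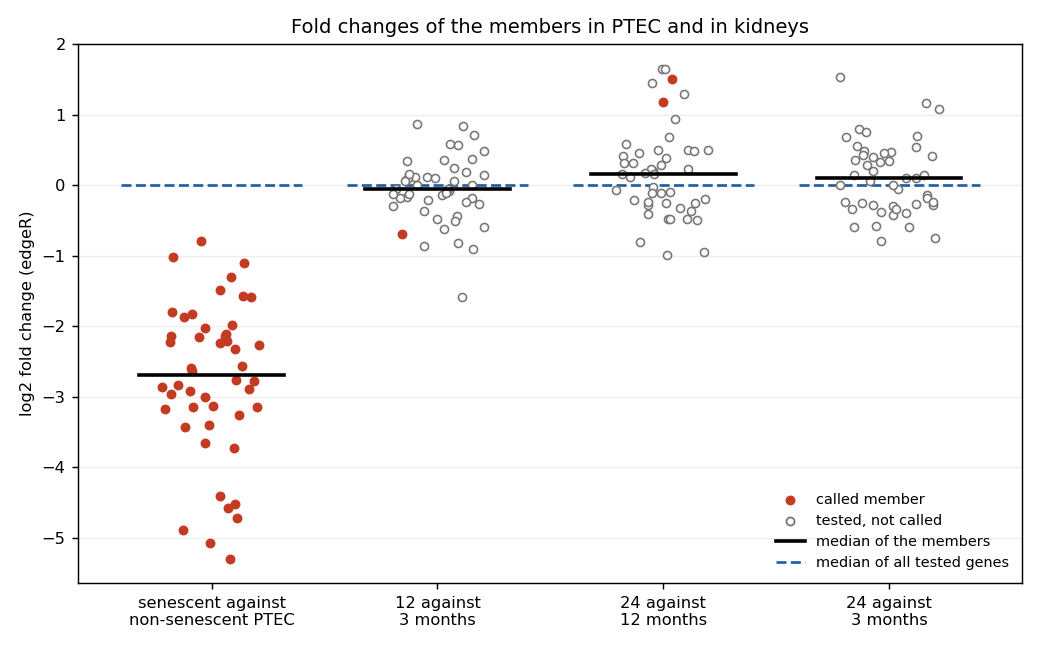
Log2 fold change of the members in the PTEC comparison and in the 3 comparisons of kidney age, 1 point per gene, with called genes in filled red, solid bars at the median of the members and dashed lines at that of all tested genes. All 48 points lie below 0 in PTEC, while in kidneys the medians are -0.05 (12 against 3 months), 0.16 (24 against 12) and 0.10 (24 against 3) and the called genes are Mcm5 and Uhrf1.

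Mcm5 was the member that moved most clearly with age, and its course was not in 1 direction. It was at 6.91, 6.94 and 6.16 CPM at 3 months, 4.34, 3.88 and 4.17 CPM at 12 months and 10.2, 9.60 and 8.22 CPM at 24 months. The 3 ages did not overlap, with the middle age lowest. The fall from 3 to 12 months was 0.69 ± 0.15 on the log2 scale (adjusted p = 0.0455) and the rise from 12 to 24 months 1.18 ± 0.15 (adjusted p = 0.0181). Both rest on thin margins. Over 15 alternative settings the fall was called in 3, with log2 changes from -0.75 to -0.65 and adjusted p-values from 0.00113 to 0.182. Its call was lost without any 1 of the libraries it rests on. The rise was called in 8 of 15, with log2 changes from 1.11 to 1.26 and adjusted p-values from 1.99e-10 to 0.0958, and it was lost when any kidney of these ages other than 24-month replicate 3 was left out. Mcm5 lies on chromosome 8 from 75109569 to 75128439 (GRCm38), next to the promoter window printed above.

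Uhrf1 was called from 12 to 24 months. It measured 1.79, 1.91 and 1.53 CPM at 3 months, 1.23, 0.691 and 1.04 CPM at 12 months and 3.76, 2.39 and 2.32 CPM at 24 months, again with the middle age lowest and no overlap. The rise from 12 to 24 months was 1.51 ± 0.29 (adjusted p = 0.0443). It was called in 6 of 15 alternative settings, with log2 changes from 1.25 to 1.71 and adjusted p-values from 0.000196 to 0.159, and was lost when any 1 of the 6 kidneys was left out. Kidneys of 12 and 24 months with the same number deviated together, and with the replicate number as a block neither Mcm5 (adjusted p = 0.0958) nor Uhrf1 (0.128) was called, so that the count of 2 became 0. Uhrf1 lies on chromosome 17 from 56303321 to 56323486.

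Claspin and the small subunit of ribonucleotide reductase had the largest differences between 12 and 24 months, without being called. Clspn was at 0.184, 0.348 and 0.135 CPM at 3 months, 0.156, 0.197 and 0.270 CPM at 12 months and 0.931, 0.502 and 0.538 CPM at 24 months. All 3 kidneys of 24 months lay above the other 6, with a difference of 1.54 ± 0.44 from 3 months (adjusted p = 0.117) and of 1.65 ± 0.43 from 12 months (adjusted p = 0.110). Rrm2 was at 3.91, 3.54 and 5.24 CPM, 2.01, 2.99 and 1.79 CPM and 6.02, 11.1 and 4.33 CPM in the same order, with 24-month replicate 2 the highest of all 9. Its difference between 12 and 24 months was 1.65 ± 0.36 (adjusted p = 0.0663). Both are among the 5 members that DESeq2 called up from 12 to 24 months, and Rrm2 was also called with edgeR without the filter on low counts (adjusted p = 0.0313) and with exon length offsets (0.0425).

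Cdt1 and Mcm3 were the members nearest to a call between 3 and 24 months. Cdt1 was at 2.86, 3.56 and 2.79 CPM, 6.64, 3.59 and 6.27 CPM and 7.51, 5.47 and 6.45 CPM at 3, 12 and 24 months, 1.07 ± 0.26 higher at 24 than at 3 months (adjusted p = 0.0693). With DESeq2 its adjusted p was 0.00863. Mcm3 was at 2.99, 3.34 and 3.22 CPM, 3.90, 3.49 and 2.97 CPM and 6.66, 4.36 and 5.64 CPM, a difference of 0.80 (adjusted p = 0.0769). E2f8 was near the limit of detection in kidneys, at 0.158, 0.369 and 0.0675 CPM, 0.173, 0.132 and 0.251 CPM and 0.565, 0.562 and 0.230 CPM, and its difference of 1.16 ± 0.59 between 3 and 24 months had an adjusted p of 0.321. On the low side Pole2 was at 1.92, 1.43 and 2.34 CPM at 3 months and 0.931, 1.38 and 0.983 CPM at 24 months (-0.78 ± 0.32, adjusted p = 0.242). Ccne2 (-0.75) and Gmnn (-0.59) followed, both with overlapping ages and adjusted p-values of 0.434 and 0.444.

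At 12 months a few members stood on the other side of both ages. Tk1 was at 5.54, 4.90 and 5.92 CPM at 3 months, 10.9, 11.3 and 7.64 CPM at 12 months and 5.34, 7.22 and 4.50 CPM at 24 months. The kidneys of 12 months lay above the other 6, by 0.87 ± 0.22 over 3 months (adjusted p = 0.0806) and by 0.81 over 24 months (adjusted p = 0.126). Mcm10 was at 6.51, 4.06 and 7.11 CPM, 8.93, 10.6 and 9.24 CPM and 4.26, 5.79 and 4.44 CPM, also highest at 12 months, with differences of 0.71 from 3 months (adjusted p = 0.154) and -0.99 ± 0.23 from 12 to 24 months (adjusted p = 0.0792). Cdc6 went the other way, with 1.10, 0.533 and 0.472 CPM, 0.208, 0.329 and 0.154 CPM and 0.840, 0.593 and 0.476 CPM, lowest at 12 months by 1.58 ± 0.45 against 3 months (adjusted p = 0.110). Gmnn was at 12.1, 7.85 and 20.6 CPM, 13.5, 26.1 and 12.1 CPM and 6.54, 12.7 and 7.73 CPM, where replicates of one age differed more than the ages. None of these 4 was called. Tk1 was called from 3 to 12 months with exon length offsets (adjusted p = 0.0367), and DESeq2 called Tk1 in both comparisons, Mcm10 from 12 to 24 months and Cdc6 from 3 to 12 months.

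**Figure D4:**
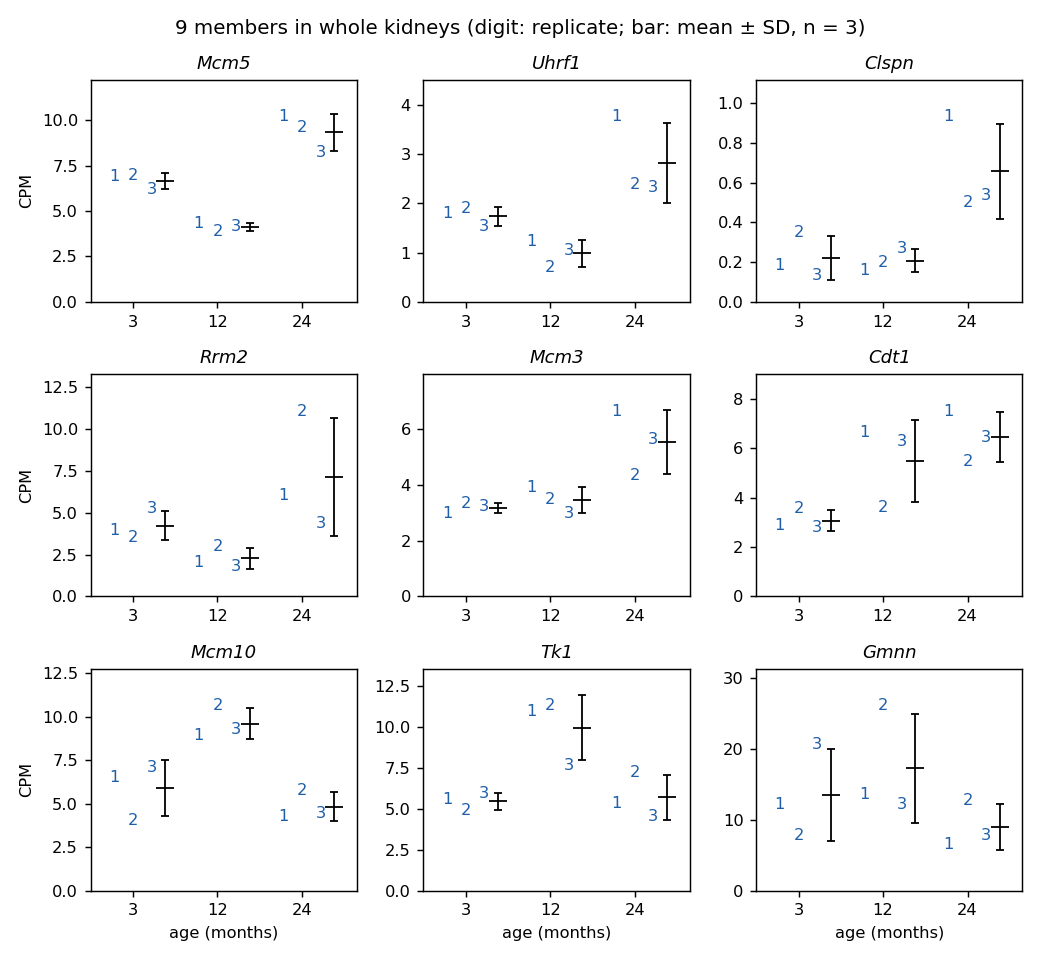
CPM of 9 members in the 9 kidneys at 3, 12 and 24 months, each digit a replicate, with the mean and SD of the 3 kidneys of an age. Mcm5 and Uhrf1 are lowest at 12 months (3.88 to 4.34 and 0.691 to 1.23 CPM) and highest at 24 months, while Tk1 and Mcm10 are highest at 12 months.

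The kidney libraries also differed from each other within an age, and the difference followed the length of the transcript. Among all genes, the median deviation of genes with more than 4000 bases of exon minus that of genes with fewer than 1500 was 0.54 on the log2 scale in 3-month replicate 2, -0.51 in 3-month replicate 3, -0.49 in 12-month replicate 2 and -0.26 in 24-month replicate 2. The members followed: the 14 with fewer than 2000 bases had a median deviation from their mean of -0.38, 0.36, 0.28 and 0.16 in these 4 libraries, and the 10 with more than 4000 bases had 0.28, -0.26, -0.15 and -0.23. Gmnn, a short gene, was highest in 3-month replicate 3 (20.6 CPM) and 12-month replicate 2 (26.1 CPM). With offsets for this trend 4 members were called up from 12 to 24 months in place of 2, and from 3 to 12 months Tk1 was called up beside Mcm5, which stayed called down. In PTEC both libraries numbered 3 had the lowest value of their groups (-0.80 and -0.43), and all 48 members were still called down without them.

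**Figure D5:**
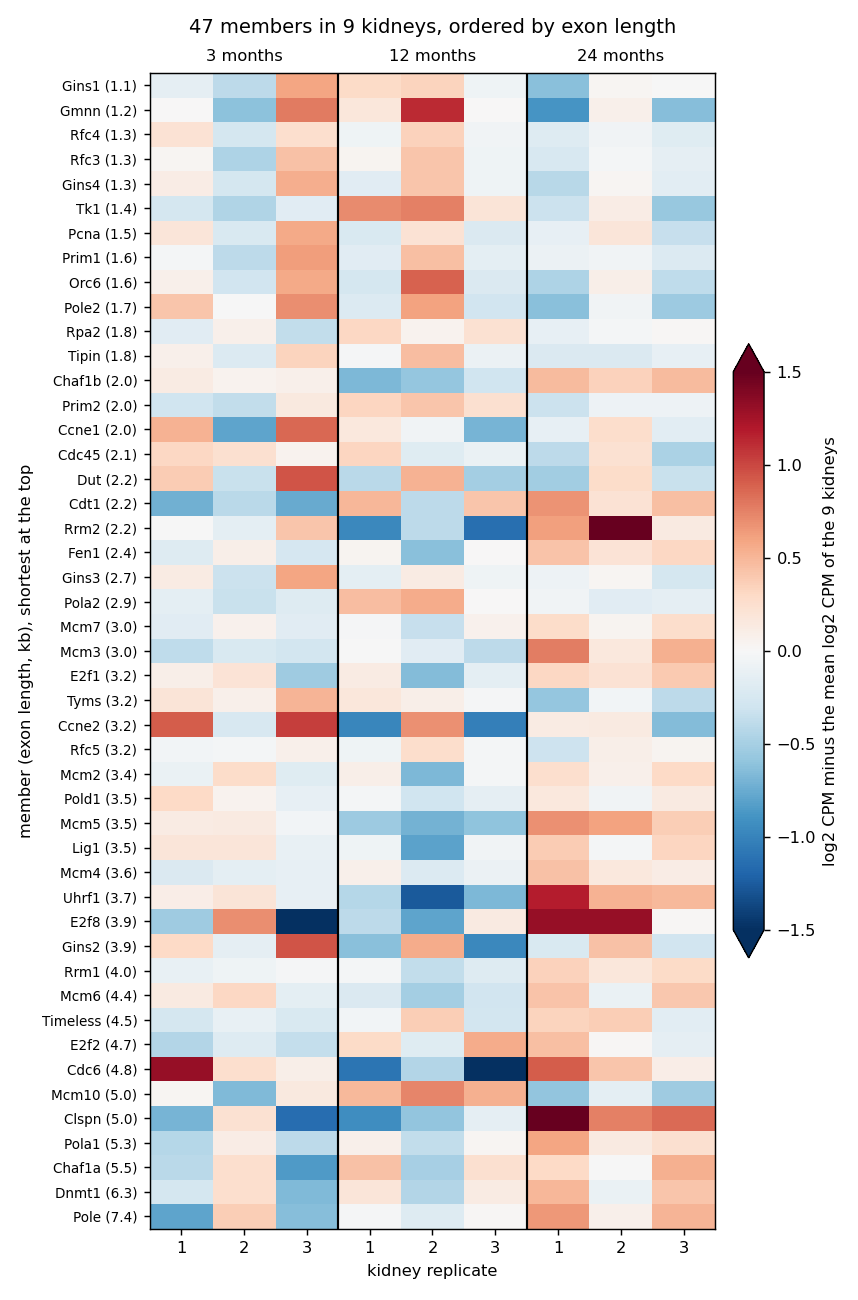
Log2 CPM minus the mean of the 9 kidneys (colour scale) for the 47 tested members, ordered by exon length, in each kidney. Short members are high and long members low in 3-month replicate 3 and 12-month replicate 2, and the reverse holds in 3-month replicate 2, with median deviations of the short members of 0.36, 0.28 and -0.38.

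Outside the 48, some mitotic genes passed the test between ages. From 12 to 24 months 7 of the 17 rose (0.896% of all genes were called up), led by the cyclins Ccnb1 (2.74) and Ccnb2 (2.45), with a median of 1.87 over the list, and in 16 of the 17 the kidneys of 24 months all lay higher (13.5% of all genes). With the replicate block none of the 7 was called (adjusted p from 0.0751 to 0.133). Their log2 changes under the block ran from 1.69 (Cdc20) to 2.69 (Ccnb1), against 1.74 and 2.74 without it. Leaving out 1 kidney left 0 called, or 4 without 24-month replicate 3, while DESeq2 called 13. From 3 to 24 months 5 rose (1.89% of all genes were called up), namely Plk1 (2.42), Ccnb1 (2.18), Mki67 (2.11), Cdc20 (1.86) and Top2a (1.78), with a median of 1.45. The replicate block left 4 called, all but Ccnb1 (2.09, adjusted p = 0.148). Leaving out 1 kidney left 4 called, or 0 without 3-month replicate 1, and DESeq2 called 11. The shares of all genes called are from edgeR and give no background for the counts of DESeq2. The summed level of the 17 mitotic genes was 18.2, 16.4 and 20.2 CPM at 3 months, 15.3, 16.8 and 13.5 at 12 months, and 45.5, 80.2 and 34.9 at 24 months. Tubular injury markers summed to 15.6 to 49.3, 18.5 to 26.4 and 46.9 to 67.2 CPM at the 3 ages (2 of 4 called up from 3 to 24 months). Their mean sum was lowest at 12 months (31.8, 21.3 and 53.8 CPM), as Mcm5 and Uhrf1 were. From 3 to 12 months 1 of the 4 was called down, and from 12 to 24 months 1 was called up. Vcam1 went the other way from 3 to 12 months (0.52, higher without overlap and not called), so the order of the sum does not hold for it. All 4 were higher at 24 than at 12 months without overlap (13.5% of all genes). Markers of all leukocytes summed to 55.5 to 65.8, 88.3 to 90.4 and 93.7 to 136 CPM. Macrophage markers summed to 83.8 to 118, 114 to 150.3 and 142 to 182 CPM, T cell markers to 3.57 to 4.77, 5.25 to 10.2 and 7.23 to 9.47 CPM, and B and plasma cell markers to 2.31 to 6.57, 9.56 to 90.8 and 15.9 to 104 CPM. From 3 to 24 months 1, 2 and 2 genes of these 3 lists were called up, of 6 tested in each. The B and plasma cell markers did not move as 1. Against 3 months 2 of the 6 were lower at 12 months and 2 at 24 months, Mzb1 the most (-1.12 and -0.57), while Jchain rose the most (5.12 and 4.95). Mzb1 differs in identifier version between the 3-month and the older kidneys, so age and gene set cannot be told apart for it. Proximal tubule markers summed to 11188 to 19303, 12841 to 20450 and 15797 to 20464 CPM, with overlapping ages. From 3 to 24 months 1 of these 9 genes was called up, and none was called in the other comparisons. The sum of the fibroblast markers had no overlap and was higher at each age, at 89.8 to 107, 107 to 127 and 134 to 162 CPM. None of the 6 genes was called between ages, and 1 was higher without overlap in each comparison. Col3a1 (-0.25 from 3 to 12 months) and Pdgfra (-0.21 from 12 to 24 months) went the other way. Endothelial markers were highest at 12 months, as Tk1 and Mcm10 were, at 133 to 165, 203 to 224 and 126 to 198 CPM, with all 5 genes higher at 12 months than at 3 and than at 24 months in the fitted values and none called with edgeR (1 and 2 at an unadjusted p under 0.05). The sum of the loop and distal tubule markers was lowest at 12 months, as Mcm5 and Uhrf1 were, at 4059 to 5487, 3087 to 3836 and 4286 to 5649 CPM. From 3 to 12 months 4 of the 5 were lower in the fitted values and 1 was called down. Slc12a3 went the other way, higher than at 3 months by 0.46 at 12 months and by 0.89 at 24 months, without being called. The part of these cell types in the values of the replication genes was not tested.

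Of the other G1/S regulators, Cdkn1a, which encodes the cyclin-dependent kinase inhibitor p21, had the same order of ages as Mcm5: it was at 12.9, 11.5 and 12.1 CPM at 3 months, 4.20, 3.27 and 5.17 at 12 months, and 28.9, 33.0 and 22.1 at 24 months. From 3 to 24 months it rose by 1.2 (adjusted p = 0.0212), a call lost in 4 of the 6 fits without 1 kidney, those without 24-month replicate 1 or 2 or 3-month replicate 1 or 3. It fell by 1.53 from 3 to 12 months (adjusted p = 0.011, and not called without 3-month or 12-month replicate 1) and rose by 2.73 from 12 to 24 months (adjusted p = 0.00391, 0.0751 with the replicate block, and 0.066 without 12-month replicate 1). Cdkn1a has another identifier version in the 3-month tables than in the older ones, so that age and gene set cannot be told apart in its comparisons with 3 months. Cyclin D1 (Ccnd1) rose by 1.38 from 3 to 24 months (adjusted p = 0.0255, called without 24-month or 3-month replicate 2 but not without any other kidney of these ages) and by 1.36 from 12 to 24 months (adjusted p = 0.0411, 0.151 with the block, and 0.0687 to 0.147 without 1 kidney). With the block the rises from 12 to 24 months were 2.74 for Cdkn1a and 1.36 for Ccnd1. With edgeR no other gene of nucleotide supply, checkpoint or chromatin copying was called between ages (at an unadjusted p under 0.05, 1, 0 and 3 of the former and 2, 3 and 3 of the others, from 3 to 24, 3 to 12 and 12 to 24 months), and of the other replication machinery Chtf8 and Pold4 were, both lower at 12 and 24 months than at 3. DESeq2 also called 1 gene of nucleotide supply down, 1 of checkpoint and chromatin copying up and 1 of the replication machinery up, all from 12 to 24 months. Chtf8 was at 79.0, 99.2 and 60.0 CPM at 3 months and at 1.46 to 4.6 CPM later, and Pold4 at 9.82, 5.78 and 10.9 CPM and at 1.86 to 3.96 CPM. When 1 kidney was left out, 1 or 2 of the pair were called. Both also differ in identifier version between the 3-month and the older tables, so age and gene set cannot be told apart for them. The highest gene of that list was Ticrr, at 1.32 from 3 to 24 months and 1.91 from 12 to 24 months, and it was not called with edgeR.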

How the data were processed

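RNA had been sequenced from 8 PTEC cultures and 9 mouse kidneys. Directional libraries of poly(A) RNA were read from both ends by the authors, who deposited a raw, unscaled count for each gene (build GRCm38). The paper's supplement names the nfcore/rnaseq pipeline and a GENCODE annotation of GRCm38 for the raw data. The aligner, the counter and its strand setting are not given there or in the other sources used here. PTEC, 3-month kidneys and older kidneys were counted on 3 gene sets (53715, 54146 and 55401 identifiers), joined without identifier version. 2351 kidney identifiers differ in version, 2 of them members (Pola2 and Chaf1a), and 16 members share exonic bases with another gene. Symbols, positions and exon lengths are from GENCODE M21 and promoters from RefSeq.

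These deposited counts entered edgeR 4.0.16 (with limma 3.58.1, under R 4.3.3) and, as an alternative, DESeq2 1.42.0. Summaries used pandas 2.3.3, numpy 2.4.6 and scipy 1.17.1 and figures matplotlib 3.10.9, under Python 3.11.15. Kidneys of all ages were in 1 fit and PTEC in another, with TMM scaling, filterByExpr and edgeR's robust quasi-likelihood test, adjusted after Benjamini and Hochberg over all genes tested. Every adjusted p is from edgeR unless DESeq2 is named, and the shares of all genes called are from edgeR alone. A call needed an adjusted p below 0.05 together with a log2 fold change beyond 0.5 in either direction. Log2 CPM had a prior count of 2. The procedure was tested on simulated data. Same-numbered PTEC cultures deviated together (r across genes of 0.284, 0.382, 0.614 and 0.186), as did kidneys of 12 and 24 months (0.384, 0.557 and 0.172), on the data alone since the labels give no source for the numbers. All adjusted p-values are nevertheless from fits with no replicate term, except where the replicate block is named. Replicates differed by more than sampling noise. The members and lists were chosen with earlier results of these data known. Named were all members in PTEC, and in kidneys the members called and the 3 highest and 3 lowest of each comparison, with the extremes of each further list. 1 such extreme is not reported here. Mcm3 between 3 and 24 months, Orc1 in kidneys, the mitotic genes listed and the ratios between members were added after their values were seen. Alternatives were DESeq2, RLE size factors in edgeR, no filter, a log2 threshold of 1, a replicate block, 2 ages alone, identifiers of 1 version, exon length offsets and samples left out.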

Additional observations from a re-analysis of the deposited data

Results flagged for a closer look

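In 9 of the 48 genes non-senescent replicate 4 lay far below the other 3 cultures of its group. It was at 91.4 CPM for Mcm5 (176 to 191 in the others), 119.7 for Mcm7 (198 to 205), 15.2 for Cdc45 (27.8 to 29.8) and 133 for Pcna (225 to 244). It was at 28.8 CPM for Pola2 (44 to 46.6), 31.6 for Tyms (61.3 to 66.4), 45.2 for Tk1 (74.7 to 80.6), 46.8 for Chaf1a (82.4 to 87.0) and 24.7 for Tipin (46.8 to 51.0). Among senescent cultures, replicate 2 lay apart for Cdc45 (3.22 CPM against 2.76 to 2.81), Pole2 (1.94 against 1.13 to 1.22) and Tipin (10.7 against 12.5 to 12.9), and replicate 3 for Cdc6 (0.946 against 1.42 to 1.51) and Rrm2 (14.4 against 15.6 in each of the others). Of 96 groups of 4 cultures, 14 had such a culture, where chance gives about 1 in 20, and 9 of the 14 were non-senescent replicate 4. The genes share their cultures and are not independent. In every one of the 9 genes replicate 4 still lay above all senescent cultures.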

How the results depend on the processing

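In PTEC 48 members were called down under each alternative except a log2 threshold of 1, which left 47 without Gins4. The median stayed between -2.85 and -2.62 over all alternatives, and over leaving out 1 culture at a time. The replicate block changed no call of a member in PTEC. 3 genes that were not called turned in sign. Orc3 was at 0.0077 without both libraries numbered 3, and Rad17 ranged from -0.082 without non-senescent replicate 4 to 0.0097 without replicate 1. Cenpa, between 3 and 24 months, was at -0.00027 with the block, -0.17 with 1 kidney of each age left out, and from -0.44 to 0.50 without 1 kidney, below 0 without 24-month or 3-month replicate 2. Between 12 and 24 months it ranged from -0.35 without 24-month replicate 2 to 0.83.

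The kidney counts were small and moved with the setting, and apart from fewer samples in some of them the cause was not tested. From 3 to 24 months DESeq2 called 2 members up, and leaving out 1 kidney gave 0 to 2, with 2 without 3-month replicate 2. From 3 to 12 months the 1 member down became 0 with a log2 threshold of 1, no filter, the replicate block, 2 ages alone, identifiers of 1 version, or 1 kidney of each age left out, and was 0 without any single kidney. DESeq2 called 2 down and 1 up, and exon length offsets 1 down and 1 up. The median ranged from -0.094 to 0.021 on leaving out 1 kidney, with the last value without 12-month replicate 1. From 12 to 24 months DESeq2 called 5 up and 2 down, the block 0, 2 ages alone 1, exon length offsets 4, and 1 kidney of each age left out 0. Leaving out 1 kidney gave 0 to 1 up and medians from 0.019 to 0.24. The same-numbered kidneys of 3 and 12 months, and of 3 and 24 months, did not deviate together (r from -0.701 to -0.0336). The block there also ended the calls of Cdkn1a (adjusted p = 0.0525 from 3 to 12 and 0.0883 from 3 to 24 months), Pold4 (0.125 and 0.0645) and, from 3 to 24 months, Ccnd1 (0.107) and Ccnb1 (0.148). Their log2 changes stayed about as large, at -1.53 and 1.2 for Cdkn1a, -1.41 and -1.95 for Pold4, 1.37 for Ccnd1 and 2.09 for Ccnb1. Low counts limit the lowest members in kidneys, where Orc1 was filtered out and E2f8 and Clspn were under 1 CPM.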
